A study of Mus musculus with 5 samples.

Results

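The genes described here are lymphocyte genes, 34 transcripts that mark B cells, T cells and natural killer (NK) cells, measured in mouse cartilage of the jaw joint, taken from the mandibular condyle. They were found by gene symbol on the array, and 33 of the 34 had a row that the platform's annotation gives to that symbol alone, out of 19938 genes tested. The T-cell kinase gene Lck was not analysed here. The measured genes comprised 15 of the B lineage and 18 of T and NK cells, and each of the 33 had a single row. The study compared mice without discoidin domain receptor 1 (DDR-1-KO, n = 2, called knockout 2 and knockout 5 after their labels) with wild-type mice (n = 3, wild type 3, 4 and 6). All 5 mice were of the strain 129/Sv, and their RNA was taken directly from the tissue, with 1 array for each mouse. The labels say no more of the knockout allele, and they name neither age nor sex.

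Lymphocytes are not part of cartilage itself, which holds chondrocytes and no blood vessels. The bone under the condyle encloses marrow, where B cells are made, and the lining of a joint can hold T cells and NK cells, so that a dissected condyle can carry RNA of these cells. B-cell precursors cut and join their antibody genes with the Rag recombinase, then display the new heavy chain with a surrogate light chain as the pre-B-cell receptor, whose signal lets them divide and mature. T cells signal through the CD3 chains of the T-cell receptor, and cytotoxic T cells and NK cells kill with perforin and granzymes. In bulk tissue, fewer cells of a type and less RNA per cell cannot be told apart.

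Levels are log2 RMA signals as deposited, and a change is knockout minus wild type on that scale. Genes were tested with limma across all 19938 genes, with p-values adjusted by the Benjamini-Hochberg method and a threshold of 0.05. Levels of different genes come from different probes, and the lymphocyte genes were not ranked by level. Across genes, levels were used to split all genes at the median mean level, to average lists and to count shared values. Detection above background was not called, so a level does not show that a gene was expressed. The array run, taken from the names the labels give the arrays, was 1 for knockout 2 and wild type 3 and 2 for the other 3 arrays.

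The knockout arrays stood apart from the wild-type arrays and from each other. Over all genes the wild-type arrays correlated at r = 0.984 to 0.993 with each other, knockout 5 at 0.903 to 0.927 with wild type, knockout 2 at 0.814 to 0.837 with wild type, and the knockout arrays at 0.803. Ddr1 read 5.96 and 5.80 on the knockout arrays and 6.02 on all wild-type arrays (change -0.14, SE 0.058, limma adjusted p = 0.377), so it does not check the labels. In the cartilage list, 3 of 17 genes fell (Sox9, Comp and Col9a3), with 2.18% of all genes called lower. The list's mean level was 5.55 on the array of knockout 2, 5.78 on that of knockout 5 and 5.86 to 5.90 on the others. These 3 calls were lost when the run was blocked (limma adjusted p = 0.0603 for Sox9, 0.0886 for Comp and 0.0797 for Col9a3). In that setting no gene of the table passed. The 3 calls were also lost with arrays centred, where other genes still passed (adjusted p = 0.0508 for Sox9, 0.0601 for Comp and 0.0508 for Col9a3). With arrays also scaled, the change of Col9a3 was -0.27 and that of Comp -0.19, in place of -0.61 and -0.41. Many genes carried identical values on several arrays. In 87.3% of all genes, and in 29 of the 33 lymphocyte genes, at least 2 of the 5 arrays held the same value. The 3 wild-type arrays held 1 value in 12 of the 33 and in 39.1% of all genes, which limits how far the p-values measure the spread between mice.

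None of the 33 lymphocyte genes passed the test (limma, lowest adjusted p = 0.0639). At an unadjusted p under 0.05 there were 5, namely Vpreb1, Vpreb3 and Cd79a of the B lineage and Gzmb and Zap70 of T and NK cells. Of all genes, 1.55% were called higher and 2.18% lower in knockout, 3.73% in all. An unadjusted p under 0.05 was found for 18.2% of all genes, 7.29% higher and 10.9% lower. The 2 groups of arrays did not overlap in 7 of the 33 lymphocyte genes and in 31.5% of all genes. Both knockout arrays lay above all wild-type arrays for 6 of the 33, against 13.0% of all genes, and below them for 1, against 18.6% of all genes. The side went with the level over all genes. Among genes below the median mean level, 21.1% had both knockout arrays above wild type and 7.65% below, and among the others these shares were 4.82% and 29.5%. Of the lymphocyte genes, 18 of 33 lay below that median.

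The B-lineage genes had a median change of 0.13, the T and NK genes one of 0.0048, and all genes one of -0.0083. The B-lineage median was above 0 in 1 of the 2 knockout arrays. Knockout 2 had a B-lineage median of 0.21 above the wild-type mean, while knockout 5 had a median of 0. For T and NK genes the medians were 0 in knockout 2 and 0.019 in knockout 5, and over all genes they were 0 in both. The B-lineage median was therefore 0.21 above the T and NK median in knockout 2 and 0.019 below it in knockout 5 (a difference of -0.019). No test was made over the members, which were chosen with results of these data known.

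**Figure D1:**
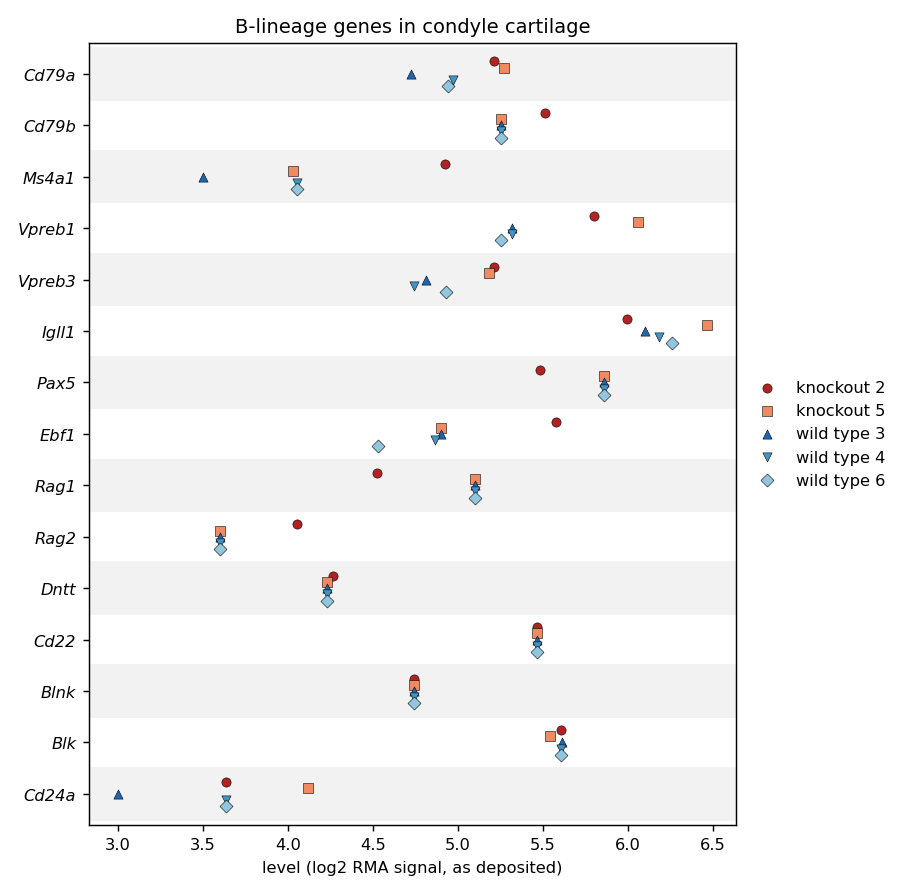
Level of each B-lineage gene (log2 RMA signal) in the 2 knockout arrays and the 3 wild-type arrays, with 1 point for each array and no averaging. Both knockout points lie to the right of all wild-type points for Cd79a, Vpreb1 and Vpreb3, and all 5 points coincide for Cd22 and Blnk.

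The pre-B-cell receptor gene Vpreb1 had the largest change of the 7 genes whose groups did not overlap. Vpreb1, which encodes the variable-like part of the surrogate light chain, was 5.80 in knockout 2 and 6.06 in knockout 5, with 5.32, 5.32 and 5.25 in wild types 3, 4 and 6. Both knockout arrays were above every wild-type array, and the gap between the groups was wider than the range within either. The mean was 5.93 ± 0.183 (SD, n = 2) in knockout and 5.30 ± 0.0376 (SD, n = 3) in wild type, a change of 0.63 (SE 0.0923, limma adjusted p = 0.0639). It was 0.48 within run 1 and 0.77 within run 2. With each array centred on its median, Vpreb1 passed at a change of 0.70 (adjusted p = 0.0348), and with arrays also scaled it passed at 0.80 (adjusted p = 0.0495). It did not pass after cyclic loess (change 0.76, adjusted p = 0.052) or when the run was blocked (change 0.65, adjusted p = 0.115). In both of these settings no gene of the table passed. Mouse Vpreb1 has a near-identical copy, Vpreb2, and signal from the copy cannot be told apart here.

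Igll1 encodes lambda5, the constant-like partner of Vpreb1 in the surrogate light chain, and the 2 genes lie side by side on chromosome 16. Its values did not follow those of Vpreb1 in knockout 2. Igll1 was 5.99 in knockout 2 and 6.46 in knockout 5, with 6.10, 6.18 and 6.26 in wild type, so that knockout 2 was below and knockout 5 above all wild-type arrays. The change was 0.047 (SE 0.168, limma adjusted p = 0.895). Vpreb3, a related protein of B-cell precursors, was at 5.21 and 5.18 in knockout 2 and 5, against 4.82, 4.74 and 4.93 in wild type. Its groups did not overlap, with a change of 0.37 (SE 0.0656, limma adjusted p = 0.0876), 0.40 within run 1 and 0.35 within run 2.

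Cd79a and Cd79b encode the paired signalling chains of the B-cell and pre-B-cell receptors, and they differed in pattern. Cd79a was 5.21 in knockout 2 and 5.27 in knockout 5, with 4.72, 4.97 and 4.94 in wild type. The groups did not overlap, and the change of 0.37 (SE 0.0948) had limma adjusted p = 0.169. Cd79b stood at 5.51 in knockout 2, while knockout 5 and every wild-type array stood at 5.26, so its change of 0.13 (SE 0.0885, limma adjusted p = 0.399) rested on knockout 2 alone.

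The promoters of the 3 B-lineage genes whose groups did not overlap, and of Igll1, are shown to set the surrogate light chain genes beside each other. They run from 250 bases before to 50 after the start site and are taken from RefSeq (GRCm38.p6). Capitals mark words that B-cell and lymphocyte factors are known to bind, searched on both strands, with no overlap between words in these 4 windows. The words are CCCNNGGG for EBF factors, CAGCTG and CAGGTG for E-box proteins, TGTGGT for RUNX factors and GAGGAA for ETS factors.
Vpreb1, chr16:16869206-16869505, minus strand: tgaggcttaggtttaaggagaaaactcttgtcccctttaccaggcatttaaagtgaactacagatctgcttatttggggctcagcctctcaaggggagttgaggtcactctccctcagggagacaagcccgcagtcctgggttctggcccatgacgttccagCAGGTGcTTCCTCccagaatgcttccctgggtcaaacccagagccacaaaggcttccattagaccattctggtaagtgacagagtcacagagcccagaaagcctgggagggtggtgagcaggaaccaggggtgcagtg
Igll1, chr16:16863936-16864235, minus strand: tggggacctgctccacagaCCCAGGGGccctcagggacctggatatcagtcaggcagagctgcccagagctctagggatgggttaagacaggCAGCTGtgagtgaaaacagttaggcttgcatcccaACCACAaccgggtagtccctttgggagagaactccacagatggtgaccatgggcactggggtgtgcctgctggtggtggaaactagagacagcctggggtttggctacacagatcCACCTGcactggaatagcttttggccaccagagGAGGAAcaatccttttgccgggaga
Vpreb3, chr10:75948050-75948349, plus strand: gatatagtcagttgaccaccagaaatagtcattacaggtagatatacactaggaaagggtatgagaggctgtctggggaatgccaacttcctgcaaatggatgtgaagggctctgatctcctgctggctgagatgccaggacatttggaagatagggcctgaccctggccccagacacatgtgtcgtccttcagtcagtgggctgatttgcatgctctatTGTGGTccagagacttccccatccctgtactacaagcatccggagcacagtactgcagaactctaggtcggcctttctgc
Cd79a, chr7:24897247-24897546, plus strand: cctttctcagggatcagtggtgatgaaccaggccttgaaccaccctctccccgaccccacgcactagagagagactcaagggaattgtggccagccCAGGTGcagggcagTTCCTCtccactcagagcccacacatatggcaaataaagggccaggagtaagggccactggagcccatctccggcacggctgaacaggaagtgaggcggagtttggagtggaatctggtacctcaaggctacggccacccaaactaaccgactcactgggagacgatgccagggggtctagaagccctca

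The windows of Vpreb1 and Cd79a each held 1 E-box and 1 ETS word, that of Vpreb3 held 1 RUNX word, and that of Igll1 held words of all 4 kinds. The EBF word was in the promoters of Igll1, Cd22, Zap70 and Prf1, 4 of the 23 measured genes with a promoter in the table, and in 13.7% of all promoters. E-box words were in 14 of the 23 (32.9% of all promoters), ETS words in 12 (28.3%) and RUNX words in 11 (16.8%). A gene counted if any of its promoters held the word, and some of these genes have several. The percentages count single promoters, so the counts and the percentages are not the same measure. No word was shared by all 3 genes whose groups did not overlap. A match is a description of these letters and not a binding site.

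Ebf1 and Ms4a1 were above wild type in knockout 2 only, and Pax5 was below it there. Ebf1, a factor that commits precursors to the B lineage, was 5.58 in knockout 2 and 4.90 in knockout 5, with 4.90, 4.86 and 4.53 in wild type. Only knockout 2 lay above wild type, and the value of knockout 5 was that of wild type 3 (change 0.47, SE 0.267, limma adjusted p = 0.399). Pax5, the factor that holds B-cell identity, was lower in knockout 2, at 5.49, while the other 4 arrays held 5.86 (change -0.19, SE 0.127). Ms4a1, which encodes CD20 of mature B cells, was 4.92 in knockout 2 and 4.03 in knockout 5, with 3.50, 4.05 and 4.05 in wild type. Its change of 0.61 (SE 0.37, limma adjusted p = 0.399) was the second largest of the lineage, and within run 1 it was 1.42 and within run 2 it was -0.022. Without knockout 2 it was 0.16 (adjusted p = 0.864).

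Cd24a, a small surface protein of B-cell precursors and of many other cells, was 3.64 in knockout 2 and 4.12 in knockout 5, with 3.002, 3.64 and 3.64 in wild type. Its change was 0.45 (SE 0.297, limma adjusted p = 0.399), and knockout 2 lay within the wild-type range. Here wild type 3 was the lowest of the wild-type arrays, as it was for Cd79a, Ms4a1 and Igll1. Over all 33 lymphocyte genes wild type 3 was the lowest wild-type array in 12 and the highest in 4, while over all genes it was lowest in 15.9% (3168) and highest in 4183.

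The genes of antigen receptor assembly stood apart in knockout 2 only, with Rag1 lower and Rag2 higher there. Rag1, a subunit of the recombinase, was at 4.52 in knockout 2, while the other 4 arrays held 5.10. Rag2, its partner and neighbour on chromosome 2, was at 4.05 in knockout 2 and at 3.60 in the other 4 arrays. Neither difference passed the test (changes -0.29 and 0.23, limma adjusted p = 0.399 for each). Dntt, the polymerase that adds untemplated bases at the joints, was at 4.26 in knockout 2 and 4.23 in the others.

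The signalling genes downstream of the B-cell receptor had changes close to 0. Cd22, an inhibitory receptor, was at 5.46 on all 5 arrays, and Blnk, the adaptor that links the receptor to its kinases, was at 4.74 on all 5. Blk, a Src-family kinase of B cells, read 5.61 and 5.54 on the arrays of knockout 2 and 5, and 5.61 on all wild-type arrays (change -0.034, SE 0.027, limma adjusted p = 0.427).

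**Figure D2:**
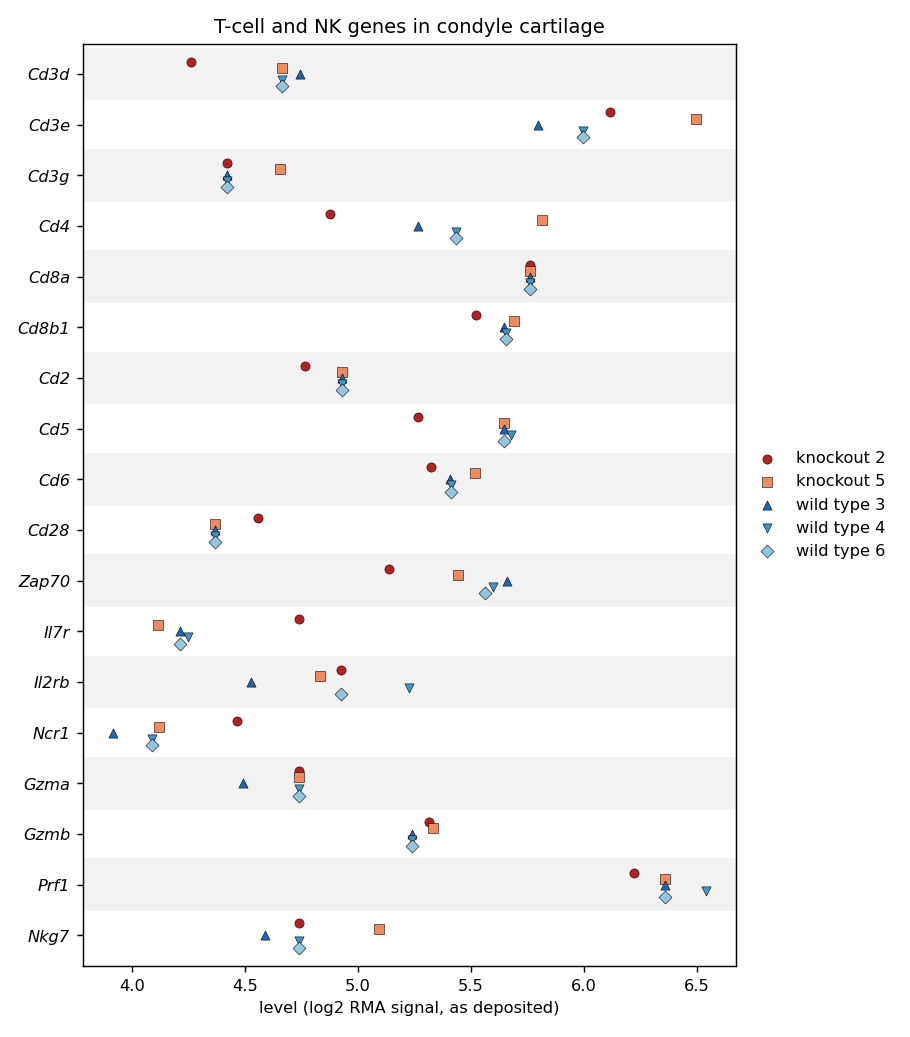
Level of each T-cell and NK gene (log2 RMA signal) in the 2 knockout arrays and the 3 wild-type arrays, with 1 point for each array. Both knockout points lie to the right of all wild-type points for Cd3e, Ncr1 and Gzmb and to the left for Zap70, while Cd4, Cd6 and Cd8b1 have knockout 2 on the left and knockout 5 on the right of wild type.

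Among T and NK genes, 9 of 18 had a change above 0, 8 below 0 and 1 of 0, from -0.32 to 0.38. The 3 CD3 chains, which sit together in the T-cell receptor and whose genes lie side by side on chromosome 9, differed in pattern. Cd3e was 6.12 in knockout 2 and 6.50 in knockout 5, with 5.80, 5.995 and 5.995 in wild type. The groups did not overlap, with a change of 0.38 (SE 0.15, limma adjusted p = 0.337), 0.32 within run 1 and 0.50 within run 2. Cd3d was 4.26 in knockout 2 and 4.66 in knockout 5, with 4.74, 4.66 and 4.66 in wild type, so that only knockout 2 was lower (change -0.23, SE 0.141, adjusted p = 0.399). Cd3g read 4.65 on the array of knockout 5 and 4.42 on the other 4 (change 0.12, SE 0.0794).

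Zap70, the kinase that binds the phosphorylated CD3 chains, was the 1 lymphocyte gene with both knockout arrays below wild type. It was 5.14 in knockout 2 and 5.44 in knockout 5, with 5.66, 5.60 and 5.56 in wild type. The mean was 5.29 ± 0.214 (SD, n = 2) in knockout and 5.61 ± 0.0496 (SD, n = 3) in wild type, a change of -0.32 (SE 0.108, limma adjusted p = 0.268). The difference was -0.52 within run 1 and -0.14 within run 2. Cyclic loess gave -0.20 (adjusted p = 0.252).

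The T-cell surface genes Cd4, Cd8b1 and Cd6 had the knockout arrays on opposite sides of wild type. Cd4, the coreceptor of helper T cells, was 4.88 in knockout 2 and 5.81 in knockout 5, with 5.27, 5.43 and 5.43 in wild type, with a change of -0.032 (SE 0.323, limma adjusted p = 1). Knockout 2 was below and knockout 5 above all wild-type arrays. Cd8b1, a chain of the cytotoxic coreceptor, had the same order at 5.52 and 5.69, against 5.65, 5.66 and 5.66, while its partner Cd8a was at 5.76 on all 5 arrays. Cd6, a receptor that tunes T-cell activation, was at 5.32 and 5.52 in knockout 2 and 5, against 5.41, 5.41 and 5.41 in wild type. With Igll1 and Il7r these made 5 of 33 genes whose knockout arrays lay on opposite sides of all wild-type arrays, against 13.9% of all genes.

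A further 3 T-cell surface genes stood apart in knockout 2 only. Cd5, an inhibitory receptor, was 5.27 in knockout 2 and 5.65 in knockout 5, with 5.65, 5.68 and 5.65 in wild type (change -0.20, SE 0.13). Cd2, an adhesion receptor, was at 4.76 in knockout 2 and 4.93 in the other 4 arrays. Cd28, the costimulatory receptor, was the higher one, at 4.56 in knockout 2 and 4.37 in the other 4.

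The cytokine receptor chains varied widely within 1 group, Il7r in knockout and Il2rb in wild type. Il7r, the interleukin-7 receptor chain of B-cell precursors and T cells, was 4.74 in knockout 2 and 4.11 in knockout 5, with 4.21, 4.25 and 4.21 in wild type (change 0.20, SE 0.212, limma adjusted p = 0.543). Il2rb, a receptor chain for interleukins 2 and 15, had the widest wild-type spread of all 33 genes. It was at 4.93 and 4.83 in knockout 2 and 5, against 4.53, 5.23 and 4.93 in wild type, and both knockout arrays lay within the wild-type range.

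Of the genes of NK cells and killing, Gzmb and Ncr1 had both knockout arrays above wild type. Gzmb, the granzyme that triggers apoptosis in target cells, read 5.31 and 5.34 on the arrays of knockout 2 and 5, and 5.24 on all wild-type arrays. The change of 0.087 (SE 0.0169) had the lowest p of the T and NK genes, with limma adjusted p = 0.103. Its wild-type spread was 0, so the SE rests on the knockout arrays and on limma's moderation. Ncr1, the activating receptor NKp46 of NK cells, was 4.46 in knockout 2 and 4.12 in knockout 5, with 3.91, 4.09 and 4.09 in wild type. Knockout 5 exceeded the highest wild-type array by little, and the change was 0.26 (SE 0.135, limma adjusted p = 0.399), or 0.55 within run 1 and 0.034 within run 2.

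Nkg7, a protein of cytotoxic granules, was 4.74 in knockout 2 and 5.10 in knockout 5, with 4.59, 4.74 and 4.74 in wild type (change 0.23, SE 0.134). Gzma, a second granzyme, was at 4.74 in both knockout arrays, against 4.49, 4.74 and 4.74 in wild type. Prf1, the pore-forming perforin, was 6.22 in knockout 2 and 6.36 in knockout 5, with 6.36, 6.54 and 6.36 in wild type (change -0.13, SE 0.0867). None of the 3 had groups apart.

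**Figure D3:**
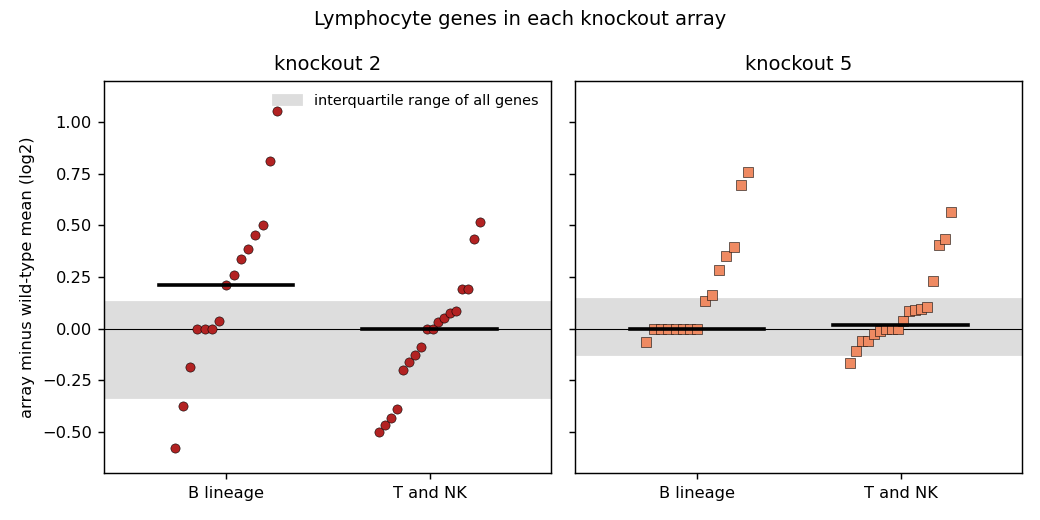
Difference between each knockout array and the wild-type mean (log2) for the B-lineage genes and the T and NK genes, with 1 point for each gene, the median as a black bar and the interquartile range of all genes tested as a grey band. In knockout 2 the B-lineage median is 0.21 and the T and NK median 0, and in knockout 5 they are 0 and 0.019.

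By the median, the lineages were ordered differently in each knockout, and in knockout 5 the B-lineage median minus the T and NK median was only -0.019. In knockout 2, 8 of 15 B-lineage genes lay above all wild-type arrays and 3 below, while 5 of 18 T and NK genes lay above and 8 below. Of all genes, 28.7% lay above and 41.4% below in that array. In knockout 5, 5 of 15 B-lineage genes lay above and 1 below, and 8 of 18 T and NK genes lay above and 2 below, against 31.4% and 31.2% of all genes. In knockout 5, 8 of 15 B-lineage and 7 of 18 T and NK genes had exactly the value of a wild-type array, against 33.6% of all genes. In knockout 2 this was so for 3 of 15 and 5 of 18, against 26.6% of all genes. The mean level of the B-lineage genes was 5.07 and 5.06 in knockout 2 and 5 and 4.82 to 4.91 in wild type. For T and NK genes it was 5.06 and 5.20 on the arrays of knockout 2 and 5, with 5.05 to 5.15 in wild type. By this mean the B-lineage genes lay above all wild-type arrays in both knockout arrays, and the T and NK genes in knockout 5 only. Averaged over all genes, the array of knockout 5, at 5.092, was also above each wild-type array (5.073 to 5.081). That of knockout 2, at 5.025, was below them. For knockout 5 the higher mean was therefore not particular to T and NK genes. Below the median mean level, where the side was more often higher over all genes, lay 9 of 15 B-lineage and 9 of 18 T and NK genes.

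**Figure D4:**
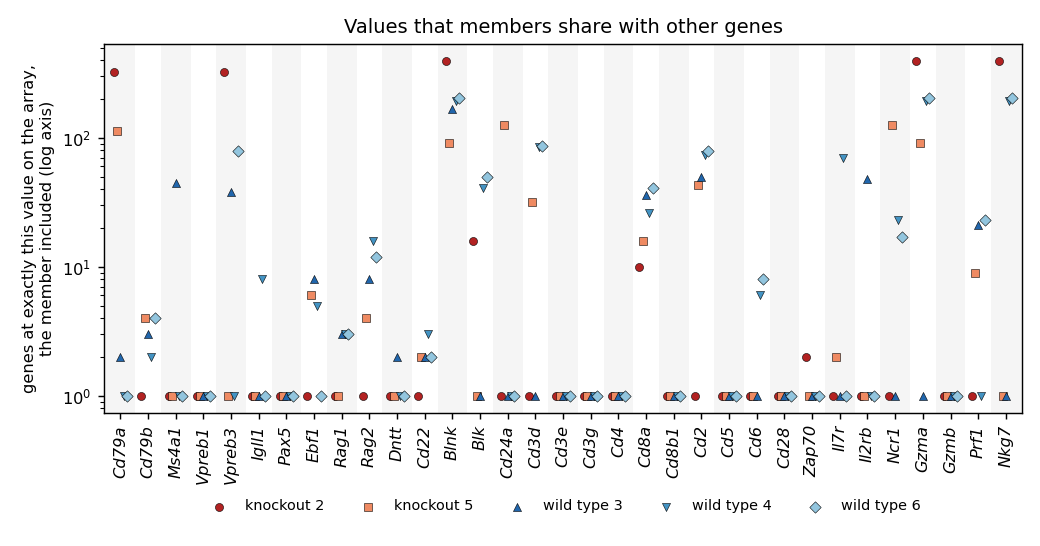
Number of genes, out of 19938, that hold exactly the same deposited value as a lymphocyte gene on the same array (log axis, the gene itself included), with 1 point for each array. Vpreb1, Cd3e and Zap70, among others, hold values of their own on nearly all arrays. In knockout 2 Blnk, Gzma and Nkg7 are at a value of 396 genes and Cd79a and Vpreb3 at one of 326.

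Some lymphocyte genes held values that many other genes held on the same array. Blnk was at 4.74 on all 5 arrays, a value that 395 other genes shared in knockout 2 and 203 in wild type 6. Gzma and Nkg7 held that same value in knockout 2. The level of Cd79a in knockout 2 was identical to that of Vpreb3, and 326 genes in all were at that value. In knockout 5 Cd79a was at another shared value, held by 112 genes in all. Cd24a and Ncr1 shared their value in knockout 5, a value held by 125 genes in all. Between 8 and 16 of the 33 genes shared their value with another gene on a given array, 24.2% to 48.5%, and 27.1% to 53.6% of all genes did. The values of Vpreb1, Pax5, Cd3e, Cd3g, Cd4, Cd8b1, Cd5, Cd28 and Gzmb were held by no other gene on any array. What the shared values contribute to the differences of Cd79a and Vpreb3 was not tested.

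Other genes of these lineages and of their neighbours gave few calls, where 1.55% of all genes were called higher and 2.18% lower. Of 21 further B-cell genes (maturation and receptor signalling) none passed, with a median change of 0.070. The lowest p was that of Cd180, a B-cell surface receptor, at 4.89 and 5.10 in knockout 2 and 5, against 4.65, 4.58 and 4.65 in wild type (change 0.37, SE 0.0771, limma adjusted p = 0.117). Cd37, a B-cell surface protein, was at 5.57 and 5.62, against 5.74, 5.86 and 5.74 (change -0.18, SE 0.0525, adjusted p = 0.207). Of 23 T-cell genes none passed, with a median of 0. Ctla4, an inhibitory receptor, read 5.52 and 5.67 on the knockout arrays and 5.40 on all wild-type arrays (change 0.19, SE 0.0523, limma adjusted p = 0.181). The pre-T-cell receptor chain Ptcra, the T-cell counterpart of the surrogate light chain, was at 6.05 and 5.58 in knockout, against 6.27, 6.41 and 6.27 in wild type (change -0.51, SE 0.168, adjusted p = 0.255). Of 10 plasma cell genes 1 rose, the survival receptor Tnfrsf17, with 5.46 and 5.48 on the knockout arrays and 5.30 on all wild-type arrays (change 0.17, SE 0.0167, adjusted p = 0.034).

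Of 17 NK and cytotoxic genes that are not on the list of 34, 1 rose and 1 fell, and the median change was 0.24. Of all genes, 1.55% were called higher and 2.18% lower. Of these 17 genes, 13 lay below the median mean level. Over all genes below it, 21.1% had both knockout arrays above wild type and 7.65% below. The median change of the list was 0.31 with arrays centred and 0.19 with arrays also scaled. Gzmc, a granzyme of activated killer cells in mice, rose, at 4.79 in knockout 2 and 4.94 in knockout 5, against 4.05, 4.05 and 4.18 in wild type (change 0.77, SE 0.0737, limma adjusted p = 0.0339). Ctsw, a protease of cytotoxic lymphocytes, fell, at 3.98 and 4.13, against 5.11, 5.11 and 5.17 (change -1.07, SE 0.0585, adjusted p = 0.0174). Of 24 factors of lymphocyte development 1 rose, Id2, which NK cells need and which blocks DNA binding by E-box proteins, with 4.35 and 4.27 on the knockout arrays and 3.999 on all wild-type arrays (change 0.31, SE 0.0300, adjusted p = 0.0344). These 4 calls were lost when the run was blocked (adjusted p = 0.0528 for Ctsw, 0.0649 for Gzmc, 0.0786 for Id2 and 0.0862 for Tnfrsf17). They were also lost after cyclic loess, with quantile normalisation, with array weights and without each single wild-type array. In all of these settings, the blocked run among them, no gene of the table passed. With arrays centred, where other genes still passed, Id2 (adjusted p = 0.0761) and Tnfrsf17 (adjusted p = 0.105) did not pass, while Gzmc and Ctsw did (adjusted p = 0.0324 for each). With arrays also scaled, Id2 (adjusted p = 0.148) and Tnfrsf17 (adjusted p = 0.12) again did not pass.

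Markers of other cells in a dissected condyle gave calls only for cartilage among the lists tested. None of 15 pan-leukocyte genes passed, with a median of -0.051. Ptprc, which encodes CD45 of all white blood cells, was 5.44 in knockout 2 and 5.13 in knockout 5, with 4.77, 4.74 and 4.41 in wild type (change 0.64, SE 0.172, limma adjusted p = 0.178). Cd48, a surface protein of leukocytes, was at 4.43 and 3.99, against 3.84, 3.84 and 3.74 (change 0.40, SE 0.153, adjusted p = 0.314). None of 11 erythroid genes, 20 neutrophil and macrophage genes and 15 genes of lymphoid niche signals passed, with medians of 0, 0.037 and 0.026. The lowest p among niche signals were those of the chemokines Cxcl13 (change 0.36, limma adjusted p = 0.0995) and Ccl19 (0.36, adjusted p = 0.23). Among erythroid genes they were those of Car2 (0.57, adjusted p = 0.176) and Car1 (-0.46, adjusted p = 0.218), and among myeloid genes those of Mmp8 (0.43, adjusted p = 0.24) and Cebpe (-0.38, adjusted p = 0.354). The cartilage list had a median of -0.26, at -0.44 in knockout 2 and -0.0035 in knockout 5, and the muscle list one of -0.15, with no call among 16 and the lowest p for Acta1 (-0.84, limma adjusted p = 0.0789) and Tnnc2 (-1.11, adjusted p = 0.15). The part of these tissues in the values of the lymphocyte genes was not tested.

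**Figure D5:**
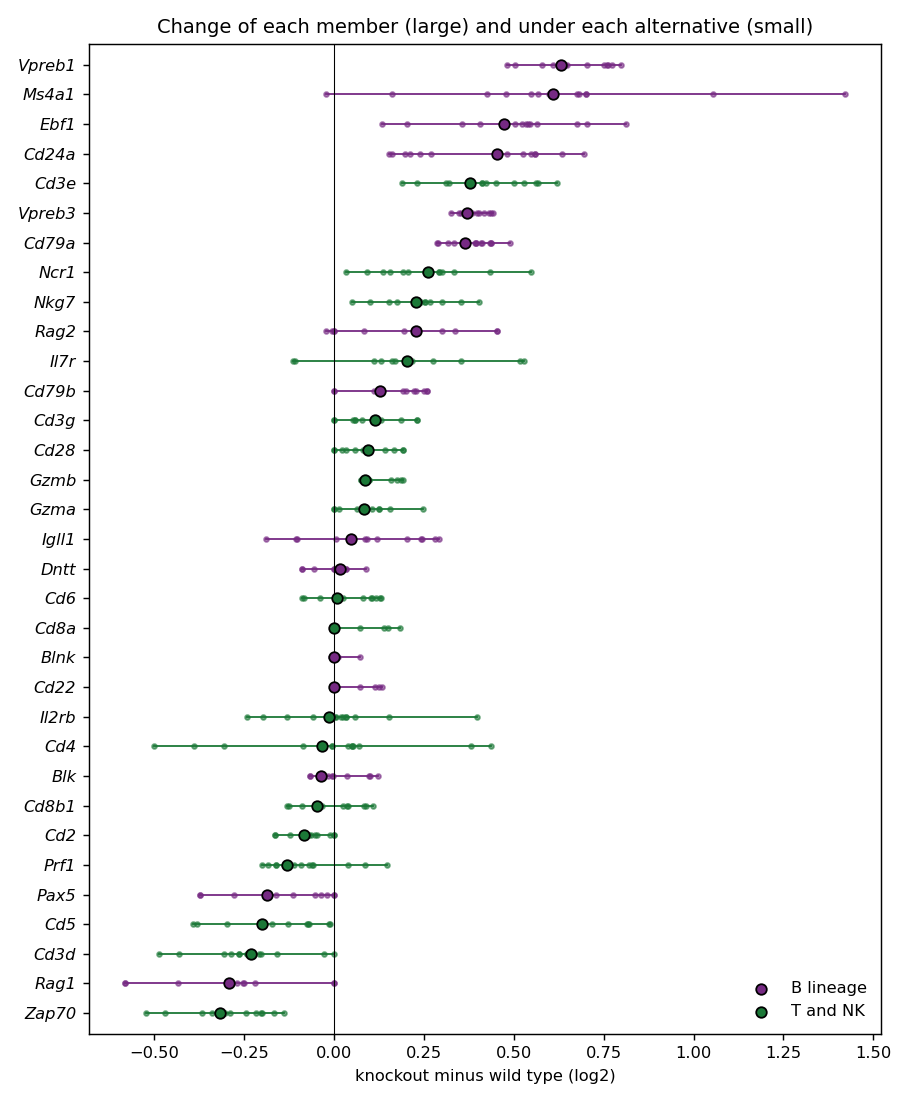
Change of each lymphocyte gene, knockout minus wild type (log2), in the main test (large points) and under each alternative (small points, joined by a line over their range). Ms4a1 has the widest range, from -0.022 to 1.42, and Vpreb1 ranges from 0.48 to 0.80.

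For the 7 genes whose groups did not overlap, leaving out an array cannot turn the sign, so only the size is given here. The change of Vpreb1 ranged from 0.48 to 0.80, that of Vpreb3 from 0.33 to 0.44, that of Cd79a from 0.29 to 0.49, that of Cd3e from 0.19 to 0.62 and that of Zap70 from -0.52 to -0.14. That of Gzmb ranged from 0.076 to 0.19 and that of Ncr1 from 0.034 to 0.55. The ranges of Ms4a1, Igll1, Rag2, Dntt, Blnk, Blk, Cd4, Cd8b1, Cd6, Il7r, Il2rb and Prf1 crossed 0. An exact permutation test of the 5 arrays cannot go below p = 0.1 (two-sided), the value that all 7 of these genes reached. They were picked because their groups did not overlap, as in 31.5% of all genes, so this value adds no support.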

How the data were processed

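RNA of mandibular condyle cartilage was hybridised to Affymetrix mouse gene 1.0 ST arrays, 1 for each of 5 mice. The deposited values are log2 signals made by the authors with Affymetrix Expression Console and RMA, per the submitters' processing notes. RMA corrects background, quantile-normalises and summarises probes by median polish. The levels of the 19938 genes still differed in distribution between arrays. Their SD was 0.802 and 0.906 on the knockout arrays (2, then 5) but 0.991 to 1.017 on wild-type arrays. Median levels were 5.047 and 5.136 against 5.157 to 5.169. The cause of this difference was not tested. The sources used here name no version and no genome build. Precision is limited by the number of arrays.

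Of 35556 rows, 21789 had 1 symbol in the platform annotation, 1621 several and 12146 none. A gene with several rows was represented by the row of highest mean. Of the 19938 genes, 19856 matched the GRCm38.p6 gene table by identifier. The comparison used lmFit and eBayes of limma 3.58.1 under R 4.3.3, two-sided. The fit was tested on simulated data. The labels name separate mice and give no pairing.

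The members and the 11 context lists were chosen with earlier results of these data known, and their older symbols were matched through RefSeq synonyms (189 of 209 places measured). Values on every array were to be given for members past the threshold and, in each lineage, the 6 of largest change and the 3 of largest wild-type spread. From each context list the genes past the threshold were named or, where none passed, the 2 of lowest p. Values given for other members and the promoters of Vpreb1, Vpreb3 and Cd79a were added after their values were seen. Alternatives covered the run, dim genes, rows, normalisation, variance model, array weights, threshold and each array left out. Promoters are from RefSeq, and protein sequences were not used here.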

Additional observations from a re-analysis of the deposited data

How the results depend on the processing

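The number of arrays, 2 knockout and 3 wild type, limits the precision, and signal over background was not available to set apart genes that were not detected. No paired analysis was possible because the groups share no replicate number. No lymphocyte gene passed when the run was blocked, after cyclic loess, with quantile normalisation, with rows averaged, with dim genes left out, with a trended robust variance or with array weights, whose estimation stopped before it converged. Those weights were 0.014 for knockout 2, 0.0050 for knockout 5 and 6.17 to 50.6 for wild type. With knockout weights this low, the lack of calls in that setting says nothing of the genes. With arrays centred, or centred and scaled, 1 B-lineage gene was called higher (Vpreb1), and at a threshold of 0.1 there were 2 (Vpreb1 and Vpreb3).

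Over all genes, 309 were called higher and 435 lower. Counts were 0 and 0 when the run was blocked (1647 and 2182 at an unadjusted p under 0.05), after cyclic loess (1952 and 1967), with quantile normalisation (1709 and 2052) and with array weights (780 and 1137). They were 90 and 68 with arrays centred and scaled, 654 and 976 at a threshold of 0.1, and 55 higher with dim genes left out. Centring alone gave 343 and 292. Leaving out single arrays gave 0 to 3930 higher and 0 to 6069 lower, with 0 without each single wild-type array and the high counts without a knockout array, where the spread of the lone knockout array is taken from wild type.

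Among members these ranges were 0 to 4 higher and 0 to 2 lower for the B lineage and 0 to 4 higher and 0 to 6 lower for T and NK cells. Without knockout 2 or knockout 5, Cd8b1 was at 0.038 or -0.13 and Cd6 at 0.11 or -0.087, in that order.

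The T and NK median of 0.0048 moved to 0.042 when the run was blocked, 0.077 with arrays centred, 0.099 with centring and scaling, 0.078 after cyclic loess, 0.071 with quantile normalisation, -0.032 with dim genes left out, -0.020 with array weights and 0.023 as a mean, and ranged from 0 to 0.049 without single arrays. The B-lineage median of 0.13 was 0.024 with dim genes left out, where the difference between the lineages was 0.056 in place of 0.12. It was 0.11 when the run was blocked, 0.15 with quantile normalisation, 0.16 with array weights, 0.19 as a mean, 0.20 with arrays centred or after cyclic loess and 0.25 with centring and scaling. It ranged from 0 to 0.21 without single arrays, with 0 without knockout 2. It was 0.26 within run 1 and 0 within run 2. Leaving out 5 genes that precursors of both lineages or many cell types share gave 0.13 for the B lineage and 0 for T and NK cells. The cause of these shifts was not tested.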

Other observations

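Rows of antigen receptor gene segments, among them rows with several symbols that were not in the test, were also described. Whether their values come from lymphocytes was not tested. This set was chosen after the data were seen. Both knockout arrays lay above all wild-type arrays in 11 of 29 immunoglobulin rows and below them in 2, and above them in 14 of 52 T-cell receptor rows and below them in 0. Over all 35556 rows of the table the shares were 19.9% above and 15.3% below. These shares were not matched for level, although over all genes the side went with the level. Knockout 5 accounted for more of these rows than knockout 2. It lay above all wild-type arrays in 19 of the 29 immunoglobulin rows and in 38 of the 52 T-cell receptor rows, with 39.0% of all rows, while knockout 2 did so in 15 and 21, with 37.0% of all rows. The median difference from the wild-type mean was 0.36 in knockout 5 and 0.14 in knockout 2 for immunoglobulin rows, and 0.47 and 0.043 for T-cell receptor rows. By the median, the B-lineage genes had the opposite order, at 0 in knockout 5 and 0.21 in knockout 2. Gene segments of a family are close copies of each other, and the 52 T-cell receptor rows held 41 different sets of values, so these rows are not independent of each other and cannot be assigned to single segments.

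The 3 rows of Ighm, the heavy chain of IgM, differed in pattern. The first read 4.71 and 5.26 on the arrays of knockout 2 and 5, and 4.70 on all wild-type arrays. The second was at 5.72 and 5.85, against 5.71 to 5.79. The third was at 4.14 and 2.19, against 2.59 to 2.85, with knockout 2 above and knockout 5 below wild type.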
